A study of Danio rerio with 2 samples.

Results

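The genes described here are 37 genes of the actin cytoskeleton and of leukocyte motility, chosen by symbol from a list that runs from the actins themselves to the kinases that signal beneath leukocyte integrins. All 37 of 37 listed symbols were found in the feature tables of a zebrafish kidney marrow single-cell RNA-seq study with at least 20 counts over its 2 libraries, as were 12774 of all 25109 features. A crawling leukocyte pushes its front forward by polymerizing actin. Small GTPases such as Cdc42 activate proteins of the WASP family, which switch on the Arp2/3 complex to grow branched filaments, while profilin and thymosins hold the pool of monomers, cofilin, coronin and Wdr1 take old filaments apart, and capping protein limits filament growth. Non-muscle myosin pulls the rear, plastin bundles filaments, moesin ties them to the membrane, and beta 2 integrins grip the substrate and signal through Src family kinases. Neutrophils, the granulocytes that mature in the kidney marrow of fish, leave it to crawl through tissue and depend on this machinery throughout.

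The samples were 2 droplet libraries made from the same 2 pooled male fish aged 6 months that carried the transgenes Tg(lysC:CFPNTR) and Tg(BACmmp9:Citrine-CAAX), in which the lysC and mmp9 promoters drive fluorescent reporters. The sorted library held live LysC:CFP-positive cells, collected by flow cytometry as LysC+ neutrophils with no, intermediate or high Mmp9:Citrine (NO, INT, HI) and pooled. The WKM library held whole kidney marrow, sorted as live cells without debris and without a gate on either reporter. Cells of both libraries were labelled with lipid-anchored sample barcodes (2 µM for 5 min), with a barcode for each portion of each fish. Cells were not assigned to fish or portion here, so each condition is 1 sample and no test between samples was made. The 3 sorted Mmp9:Citrine levels were not separated here, and cells are compared by their mmp9 RNA.

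After filtering, 14950 cells with 48856322 unique molecular identifiers (UMIs, 1 for each captured RNA molecule) remained in the sorted library (median 2228 UMIs per cell), and 8166 cells with 40542650 UMIs in WKM (median 3352). The libraries shared 62 cell barcodes among all those deposited and 40 among the cells kept. Cells were placed in 4 bands by the share of their UMIs that came from lyz, a lysozyme gene of the neutrophil granule program, namely under 2%, 2 to 5%, 5 to 10% and over 10%. In the order of rising lyz share, the bands held 6547, 2977, 3682 and 1744 sorted cells, and 1922, 1204, 1033 and 914 neutrophil-like cells of WKM, which were gated by mpx, npsn, lect2l and scpp8. The bands cut a continuous range, and 1633 sorted cells (10.9%) lay within 10% of the 5% limit, the most crowded of the 3 limits. Cells with little lyz were shallow in both libraries, with a median of 1666 UMIs in sorted cells under 2% lyz, against 7060 over 10%. mmp9 ran the other way, at 1625, 537, 274 and 36.2 CPM in the 4 sorted bands. The markers used to gate erythroid, B, T/NK, monocyte or macrophage, HSPC and thrombocyte cells summed to no more than 10.8 CPM per list in the sorted bands. Markers also found in sorted neutrophils had been left out of these lists. The low sums therefore cannot show how pure the sorted cells were. In neutrophil-like cells of WKM the erythroid list of 6 markers summed to between 163 and 699 CPM, highest under 2% lyz. Globins are not in that list. They took 6.80% of UMIs in neutrophil-like cells of WKM under 2% lyz and 1.68% over 10%. In sorted cells they took 0.115% under 2% lyz and 0.00234% over 10%. Signs of stress and RNA quality moved with the bands too. In sorted cells under 2% lyz, against over 10%, the median mitochondrial share was 2.15% against 0.945%, 9 heat shock genes summed to 1734 against 763 CPM and immediate early genes to 3878 against 1678 CPM. In WKM neutrophil-like cells the same pairs were 1.83% against 0.877%, 84.4 against 41.4 CPM and 1766 against 604 CPM. The part that these differences play in the member levels was not tested.

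Levels are given as counts per 1000000 UMIs of a band or class (CPM), with intervals that cover counting error only. A gene was called higher or lower when the ratio of CPM reached 1.5-fold, among features with at least 100 counts over the cells compared. In sorted neutrophils, 22 of the 35 members that could be compared were higher under 2% lyz than over 10%, and none was lower, while 44.4% of all 7861 features compared were higher and 15.7% lower. The median log2 ratio of the members was 0.66, beside 0.46 over all features, a shift that comes in part with lyz itself, which took 0.85% of the UMIs under 2% and 13.04% over 10%. Relative to that median of all features, 7 members were higher and 1 was lower, where 25.9% of features were higher and 27.4% lower. The 37 members together supplied 14.1%, 12.7%, 10.4% and 8.19% of all UMIs in the sorted bands of rising lyz share. Per cell the order was the reverse, at 267, 360, 419 and 617 member UMIs, as the cells with much lyz gave more UMIs in all. Whether those cells held more RNA was not tested. By UMIs per cell, 31 of 35 members were lower under 2% lyz and none higher, where 84.6% of all features were lower and 2.94% higher. Every direction by lyz share given here is therefore one of composition, the share of a cell's RNA, and not of molecules per cell. At least 3 mmp9 UMIs were found in 2359 of 6547 sorted cells under 2% lyz and in 49 of 1744 over 10%. The contrast by lyz share thus mixes lyz with mmp9, and it was not repeated among cells without mmp9 RNA.

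**Figure D1:**
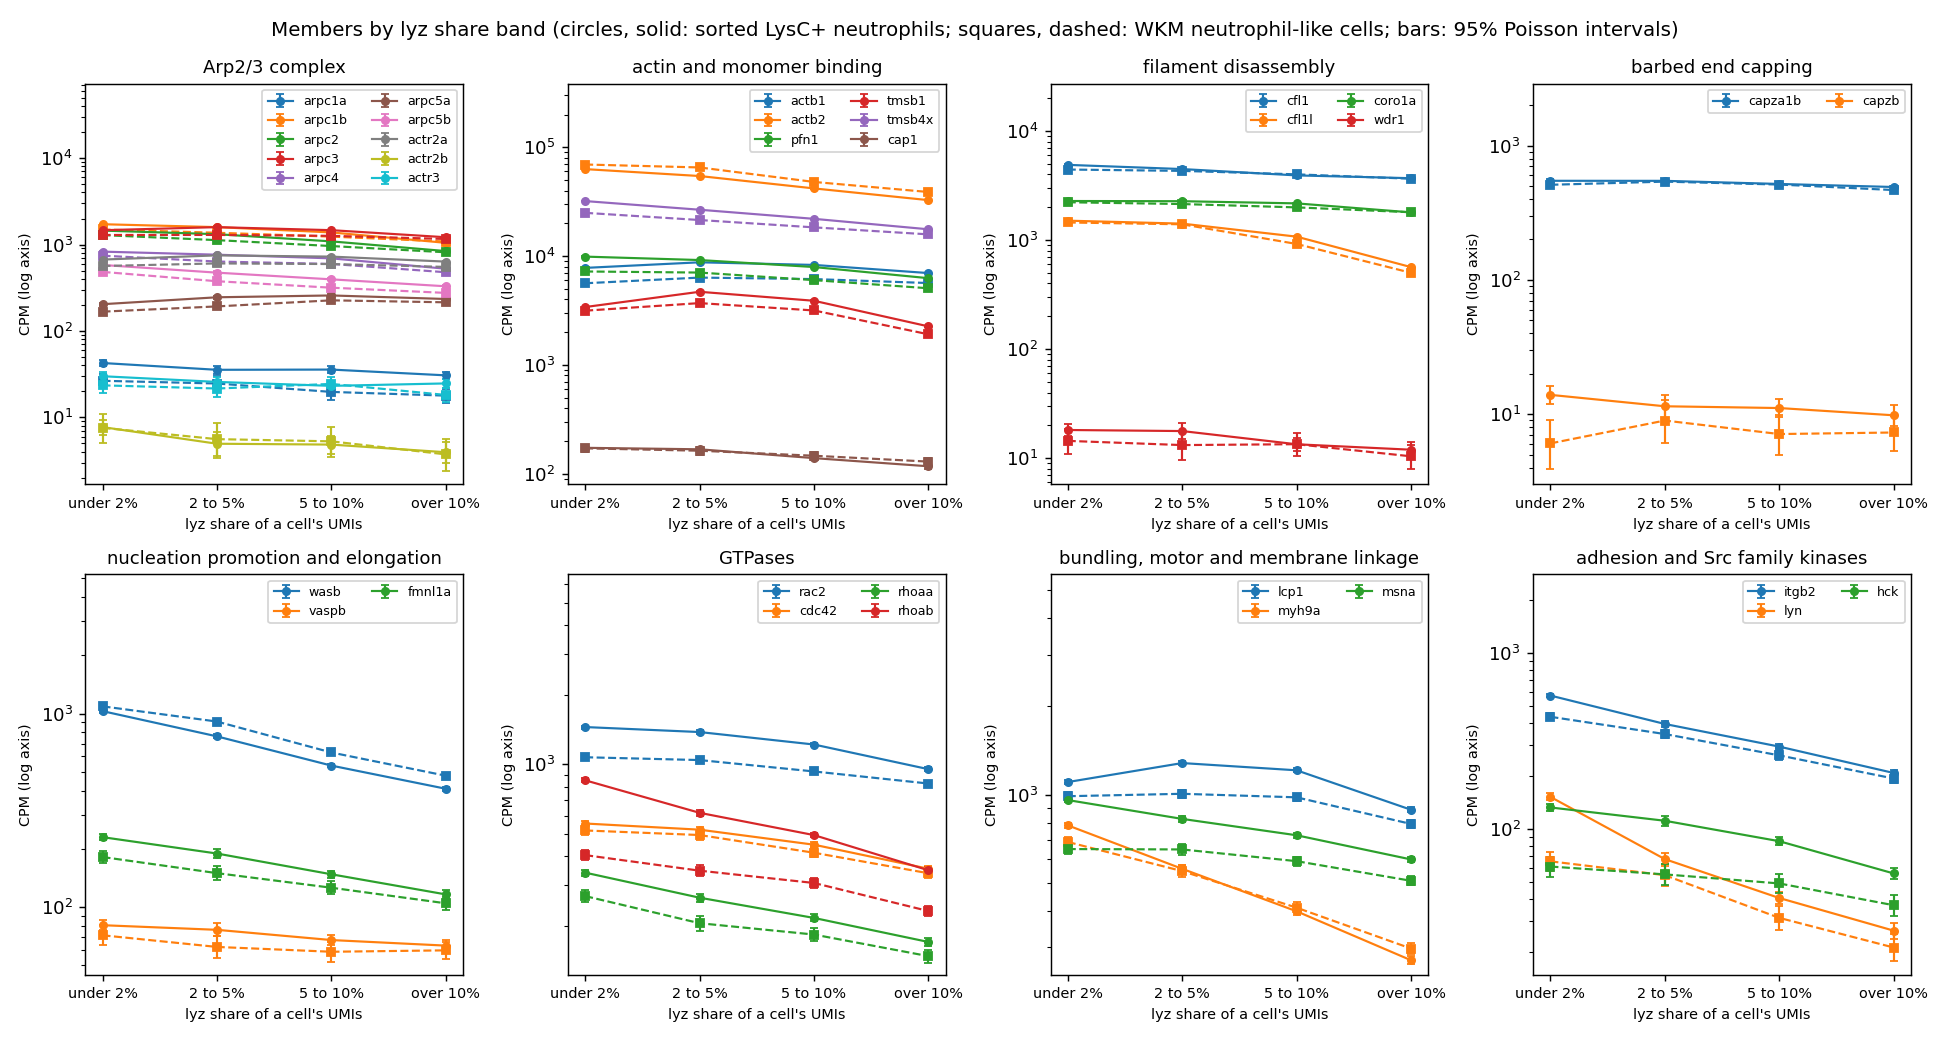
Level of each member in CPM (log axis) by lyz share band, low to high, in panels by role; circles with solid lines are sorted LysC+ neutrophils and squares with dashed lines are neutrophil-like cells of WKM. Most lines fall to the right, as for actb2 from its 63095 CPM under 2% lyz, while actr2a, capza1b and arpc5a run nearly flat or upward.

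The Arp2/3 complex nucleates branched filaments and is built of actin-related proteins and smaller Arpc subunits, of which the list holds 10 genes. Summed, they stood at 6994 CPM in sorted cells under 2% lyz and 4884 CPM over 10%. Of the 10, 5 were higher (arpc1b, arpc2, arpc4, arpc5b and actr2b), a share near the 44.4% of all features. arpc1b, the leukocyte form of the complex's regulatory propeller subunit in mammals and the most counted of the 10 over both libraries, had 1718, 1590, 1381 and 1047 CPM in the sorted bands of rising lyz share, with a log2 ratio of 0.72 for under 2% over over 10% (95% interval 0.68 to 0.75). In the WKM bands arpc1b had 1494, 1368, 1235 and 1084 CPM, a log2 ratio of 0.46 that stayed inside 1.5-fold. Its paralog arpc1a stood far lower in counts, at 42.6, 35.6, 35.8 and 30.7 CPM in the sorted bands and 26.5, 24.7, 19.7 and 17.9 CPM in the WKM bands. Both forms of this subunit thus gave smaller shares of RNA over 10% lyz in both libraries, although only arpc1b in the sorted cells passed the fold.

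The other subunits did not keep step with arpc1b. arpc5a, 1 of 2 copies of the smallest subunit, had 204, 245, 258 and 234 CPM in the sorted bands, and its log2 ratio of -0.20 (-0.28 to -0.12) was the lowest of any member compared there. In the WKM bands arpc5a had 167, 192, 226 and 215 CPM, with a log2 ratio of -0.36 (-0.50 to -0.22). The other copy, arpc5b, went the opposite way, with 580, 473, 396 and 329 CPM in the sorted bands and 483, 376, 317 and 276 CPM in the WKM bands. Its log2 ratios were 0.82 (0.76 to 0.87) in sorted cells and 0.81 (0.71 to 0.90) in WKM. The actin-related subunit Arp2 is also encoded by a pair of genes. actr2a was nearly level, with 670, 749, 725 and 635 CPM in the sorted bands and 565, 605, 595 and 551 CPM in the WKM bands. actr2b gave few counts, at 7.73, 4.96, 4.85 and 3.96 CPM in the sorted bands and 7.58, 5.61, 5.29 and 3.74 CPM in the WKM bands, and its log2 ratio of 0.97 in sorted cells had a wide interval of 0.46 to 1.48. arpc3, a subunit of the complex's core, was highest at 2 to 5% lyz in sorted cells, with 1464, 1590, 1466 and 1215 CPM. The last 3 subunits were arpc2 at a log2 ratio of 0.79, arpc4 at 0.66 and actr3, the Arp3 gene, at 0.28, the last of them inside 1.5-fold.

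Actins and the proteins that bind their monomers made up most of the members' RNA, at 116424 CPM in sorted cells under 2% lyz and 65980 CPM over 10%. Of the 6, 4 were higher (actb2, pfn1, tmsb4x and tmsb1), beside 44.4% of all features. actb2, a cytoplasmic beta actin and the most abundant member by counts, had 63095, 54499, 41926 and 32707 CPM in the sorted bands and 69548, 65360, 48082 and 38863 CPM in the WKM bands of rising lyz share. Its log2 ratios were 0.95 (0.94 to 0.95) in sorted cells and 0.84 (0.83 to 0.85) in WKM. The second beta actin, actb1, did not follow it, with 7792, 8770, 8299 and 6984 CPM in the sorted bands and 5628, 6347, 6149 and 5655 CPM in the WKM bands. The log2 ratio of actb1 was 0.16 in sorted cells and -0.01 in WKM, well inside 1.5-fold in both. The actins of the list thus moved unequally with lyz share. The thymosins, small peptides that sequester actin monomers, also differed in shape. tmsb4x was lower at every step of rising lyz share, with 32069, 26699, 22018 and 17646 CPM in the sorted bands and 25000, 21474, 18378 and 15847 CPM in the WKM bands, and log2 ratios of 0.86 and 0.66. tmsb1 was highest at 2 to 5% lyz in both libraries, with 3401, 4699, 3885 and 2259 CPM in sorted cells and 3149, 3697, 3164 and 1910 CPM in WKM. Its log2 ratio for under 2% over over 10% was 0.59 in sorted cells, just past the fold, and 0.72 in WKM. pfn1, the profilin that feeds monomers to growing ends, had a log2 ratio of 0.66 in sorted cells, and cap1, which recycles monomers from cofilin, had 0.56 and missed the fold.

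Filament disassembly was led in counts by the cofilins, which sever filaments. cfl1 had 4895, 4480, 3918 and 3694 CPM in the sorted bands and 4436, 4311, 4007 and 3653 CPM in the WKM bands, inside 1.5-fold in both. Cofilin 1-like, cfl1l, was the steepest of the group, with 1507, 1416, 1075 and 565 CPM in the sorted bands and 1450, 1395, 921 and 501 CPM in the WKM bands. Its log2 ratios were 1.42 (1.38 to 1.45) in sorted cells and 1.53 (1.47 to 1.60) in WKM, so it was higher under 2% lyz in both. The drop of cfl1l lay almost wholly above 5% lyz. coro1a, the leukocyte coronin that works with cofilin and Arp2/3, was flatter, with 2282, 2272, 2170 and 1794 CPM in the sorted bands and 2222, 2140, 1994 and 1800 CPM in the WKM bands. wdr1, a cofactor of cofilin, had few counts and a log2 ratio of 0.60 in sorted cells (0.30 to 0.90), just past the fold. cfl1l and wdr1 were thus the 2 of 4 called higher, beside 44.4% of all features.

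Capping protein is the heterodimer that blocks the growing ends of filaments. Its alpha subunit gene capza1b hardly moved, with 547, 546, 518 and 491 CPM in the sorted bands and 510.5, 539, 512 and 466 CPM in the WKM bands. The beta subunit gene capzb had 13.9, 11.5, 11.1 and 9.82 CPM in the sorted bands and 6.07, 8.98, 7.12 and 7.31 CPM in the WKM bands, too few counts for a call in WKM. Neither was called in sorted cells, although capzb spanned 1.42-fold there between its highest and lowest bands. Among the promoters of filament growth, wasb, a gene of the Wiskott-Aldrich syndrome protein that activates Arp2/3 in blood cells, changed most. It had 1029, 762, 538 and 409 CPM in the sorted bands and 1089, 909, 629 and 477 CPM in the WKM bands, with log2 ratios of 1.33 (1.29 to 1.38) and 1.19 (1.12 to 1.26), higher under 2% lyz in both libraries. fmnl1a, a leukocyte formin that elongates unbranched filaments, was also higher, with a log2 ratio of 0.98 in sorted cells and 0.79 in WKM. vaspb, of the Ena/VASP family that protects growing ends from capping, stayed inside the fold at 80.6, 76.3, 67.6 and 63.3 CPM in the sorted bands and 71.5, 62.3, 58.8 and 59.8 CPM in the WKM bands. Its relative evla had 0 counts among all 48856322 UMIs of the sorted library, where 3 counts would be 0.0614 CPM. It had no more than 1.26 CPM in any WKM band.

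The list also holds 5 genes of small GTPases, switches that set where a cell protrudes and contracts. rhoab had 853, 617, 495 and 349 CPM in the sorted bands and 405, 347, 307 and 232 CPM in the WKM bands. Its log2 ratios were 1.29 (1.24 to 1.34) in sorted cells and 0.80 (0.70 to 0.91) in WKM. Its paralog rhoaa had 341, 265, 217 and 171 CPM in the sorted bands and 270, 206, 184 and 148 CPM in the WKM bands, with log2 ratios of 0.995 and 0.86, so both were higher under 2% lyz in both libraries. rac2, the Rac of blood cells that drives protrusion in neutrophils, had 1449, 1379, 1218 and 953 CPM in the sorted bands and 1073, 1044, 932 and 826 CPM in the WKM bands. Its log2 ratio of 0.60 was just past the fold in sorted cells, and 0.38 in WKM missed it. rac1a, the broadly expressed Rac, stayed between 0.0806 and 0.354 CPM over the sorted bands and between 0.407 and 0.758 CPM over the WKM bands, with too few counts for a comparison. cdc42, which sets polarity and activates WASP, had log2 ratios of 0.65 in sorted cells and 0.61 in WKM.

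The motor gene of the list was steeper than the bundling and linking genes. myh9a, a non-muscle myosin II heavy chain, had 785, 557, 399 and 271 CPM in the sorted bands and 688, 547, 410 and 297 CPM in the WKM bands. Its log2 ratios were 1.53 (1.48 to 1.59) in sorted cells and 1.21 (1.12 to 1.30) in WKM. lcp1, the leukocyte plastin that bundles filaments, peaked at 2 to 5% lyz in both libraries, with 1103, 1281, 1210 and 887 CPM in the sorted bands and 987, 1006, 978 and 793 CPM in the WKM bands, inside 1.5-fold. msna, the moesin gene, was higher under 2% lyz in sorted cells (log2 ratio 0.67) and not called in WKM (0.36).

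The members that act at the membrane under integrins were the only role group in which every gene was higher under 2% lyz in both libraries. The group has only 3 genes. Of all features, 44.4% were higher in sorted cells and 40.8% in WKM, and the share higher in both was not counted. Together the 3 genes stood at 853 CPM in sorted cells under 2% and 289 CPM over 10%. lyn, a Src family kinase of myeloid cells, had 151, 67.1, 40.4 and 26.3 CPM in the sorted bands, and its log2 ratio of 2.52 (2.36 to 2.69) was the largest of the 35 members compared. In the WKM bands lyn had 65.2, 54.4, 31.1 and 21.1 CPM, a log2 ratio of 1.63 (1.32 to 1.94), also the largest of the members compared there. lyn was also the single member of the 35 with more UMIs per sorted cell under 2% lyz (0.287) than over 10% (0.198), although that ratio was under 1.5-fold. That direction was not repeated in neutrophil-like cells of WKM, with 0.134 lyn UMIs per cell under 2% lyz and 0.142 over 10%. With sorted cells thinned to 1000 UMIs, which left out 66, 35, 19 and 2 shallower cells, 13.5%, 6.19%, 4.61% and 2.47% of cells had a lyn UMI in the bands of rising lyz share (23.9%, 16.5%, 14.9% and 18.1% unthinned). In WKM the thinned share was 4.78% in neutrophil-like cells and 1.03% in erythroid-like cells. The share that free RNA alone would give was not measured in either library. itgb2, the beta 2 integrin chain (CD18), had 570, 393, 292 and 207 CPM in the sorted bands and 432, 344, 261 and 193 CPM in the WKM bands, with log2 ratios of 1.46 (1.40 to 1.52) and 1.16 (1.06 to 1.27). hck, a second myeloid Src family kinase, had 132, 111, 84.8 and 55.6 CPM in the sorted bands and 60.9, 55.0, 48.8 and 36.7 CPM in the WKM bands. Its log2 ratios were 1.24 (1.12 to 1.37) in sorted cells and 0.73 (0.46 to 0.998) in WKM. In cells under 2% lyz without mmp9 RNA, described below, hck was near its level over 10% lyz in both libraries. A second feature also named lyn, which the reference table names otherwise, was left out.

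**Figure D2:**
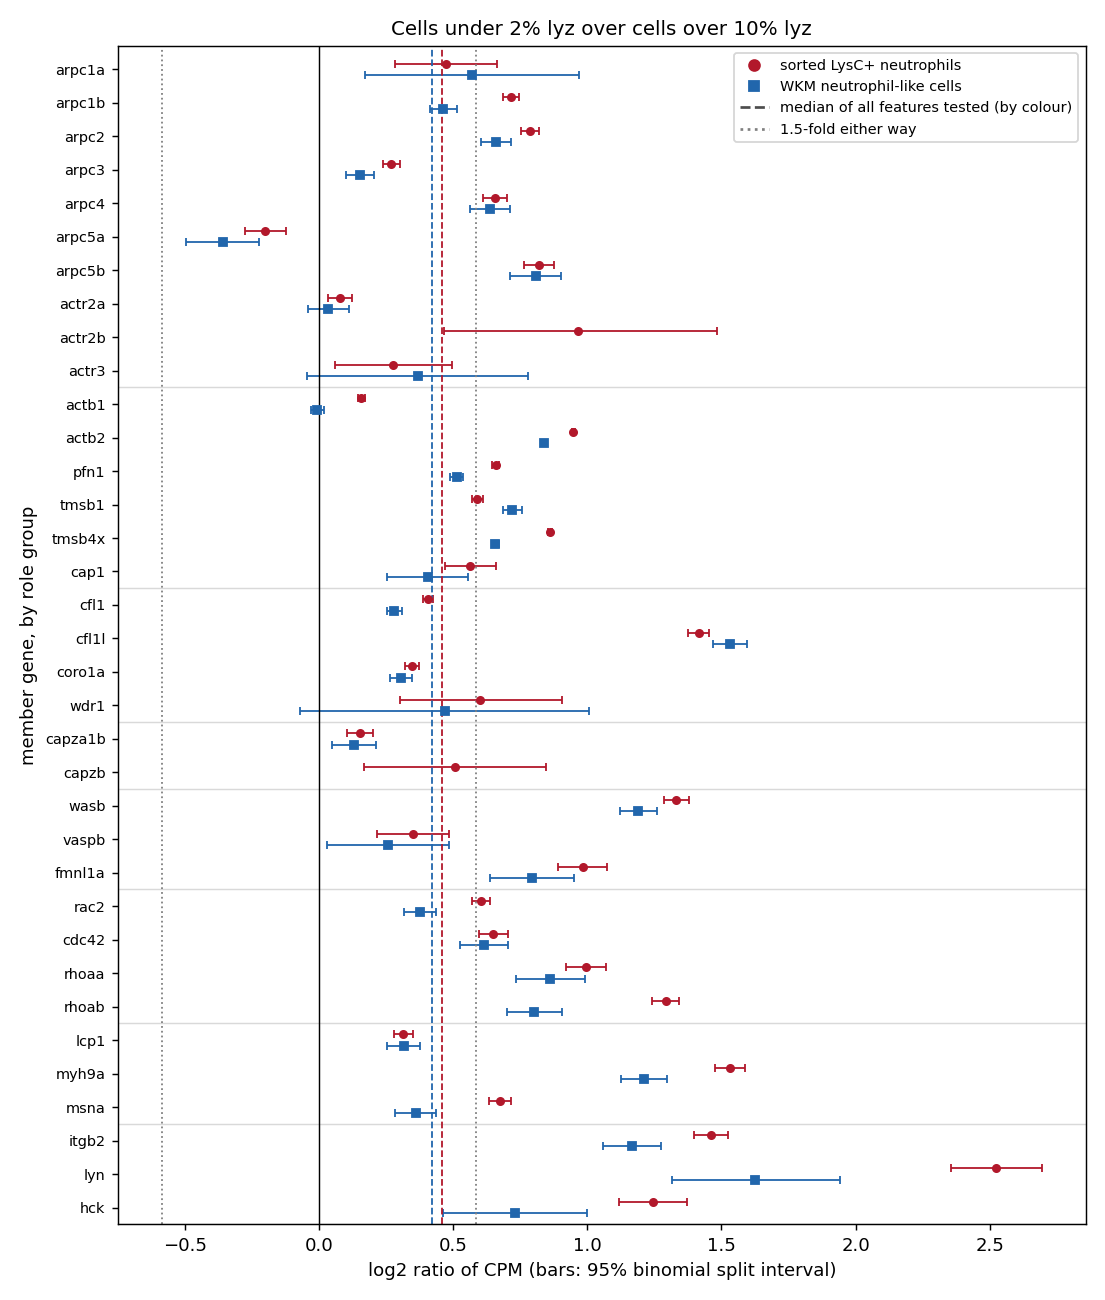
Log2 ratio of CPM, under 2% lyz over over 10%, for each member with its 95% counting interval, in sorted LysC+ neutrophils and in neutrophil-like cells of WKM. Dashed lines mark the medians of all features compared (0.46 and 0.42) and dotted lines 1.5-fold; lyn lies farthest right, and arpc5a lies left of 0 in both.

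Stepwise profiles were common. In sorted cells the CPM of 27 of 35 members was lower at each step of rising lyz share, as was that of 42.8% of 8944 features. A peak at 2 to 5% was found for 5 members (tmsb1, actb1, lcp1, arpc3 and actr2a) and 8.96% of features, and arpc5a peaked at 5 to 10%. Among neutrophil-like cells of WKM, 16 of 33 members compared were higher under 2% lyz and none lower, beside 40.8% and 10.1% of 5260 features, with a member median of 0.57 beside 0.42. Relative to that median, 5 members were higher and 1 was lower, where 20.1% of features were higher and 20.4% lower. WKM cells that fall in no gate had been planned as part of these bands, and all 949 of them lay under 2% lyz, where prss1, a trypsin gene of the exocrine pancreas, reached 699 CPM among them. The neutrophil-like gate needed at least 0.2% lyz, so cells with neutrophil markers and less lyz could also fall in no gate. Under 2% lyz, mmp9 stood at 115 CPM in cells of no gate and 333 CPM in neutrophil-like cells. At least 3 mmp9 UMIs were found in 243 WKM cells under 2% lyz with the cells of no gate, and in 182 without them. With the cells of no gate included, only 3 of 33 members were higher under 2% lyz and 2 were lower (31.8% and 7.70% of 6321 features). Relative to the all-feature median of 0.34, 1 was higher and 5 lower (16.5% and 14.7% of features), and 32 of 35 members were highest at 2 to 5%, as were 34.6% of features. actb2 then stood at 45816 CPM under 2% lyz and cfl1l at 818 CPM. The bands restricted to neutrophil-like cells, used throughout the text above, were chosen after these values were seen.

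Several members are paralogs, for which the share of a pair's counts can be compared between cells whatever the depth, as long as reads of similar copies were assigned to the right one, which the deposited counts cannot show. actb1 gave 10.99%, 13.9%, 16.5% and 17.6% of the counts of actb1 and actb2 in the sorted bands of rising lyz share, and 7.49%, 8.85%, 11.3% and 12.7% in the WKM bands. arpc5a gave 26.0%, 34.2%, 39.4% and 41.6% of the arpc5 pair in the sorted bands. In the WKM bands it gave 25.7%, 33.8%, 41.7% and 43.8%, so bands with more lyz used more of the a copy in both libraries. Among cells with 0 mmp9 UMIs its share also rose, from 19.2% under 2% lyz to 41.8% over 10% in sorted cells. The WKM values were 21.9% and 43.9%. With at least 3 mmp9 UMIs the rise in sorted cells was smaller, from 33.2% to 39.0%. WKM cells with at least 3 showed no clear rise, at 42.0%, 45.6% and 37.8% in the bands up to 10% lyz. Over 10% lyz their pair had only 20 counts. Over all cells of a band, cfl1l went the other way from arpc5a. It gave 23.5%, 24.0%, 21.5% and 13.3% of the cofilin pair in the sorted bands and 24.6%, 24.5%, 18.7% and 12.06% in the WKM bands. tmsb1 made up 9.59%, 14.97%, 14.999% and 11.3% of the thymosin pair in the sorted bands, and 11.2%, 14.7%, 14.7% and 10.8% in the WKM bands, highest in the middle. rhoab took between 67.1% and 71.5% of the counts of rhoaa and rhoab in the sorted bands and between 60.1% and 62.8% in the WKM bands, which of these 5 shares moved least with lyz in percentage points and differed most between the libraries.

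**Figure D3:**
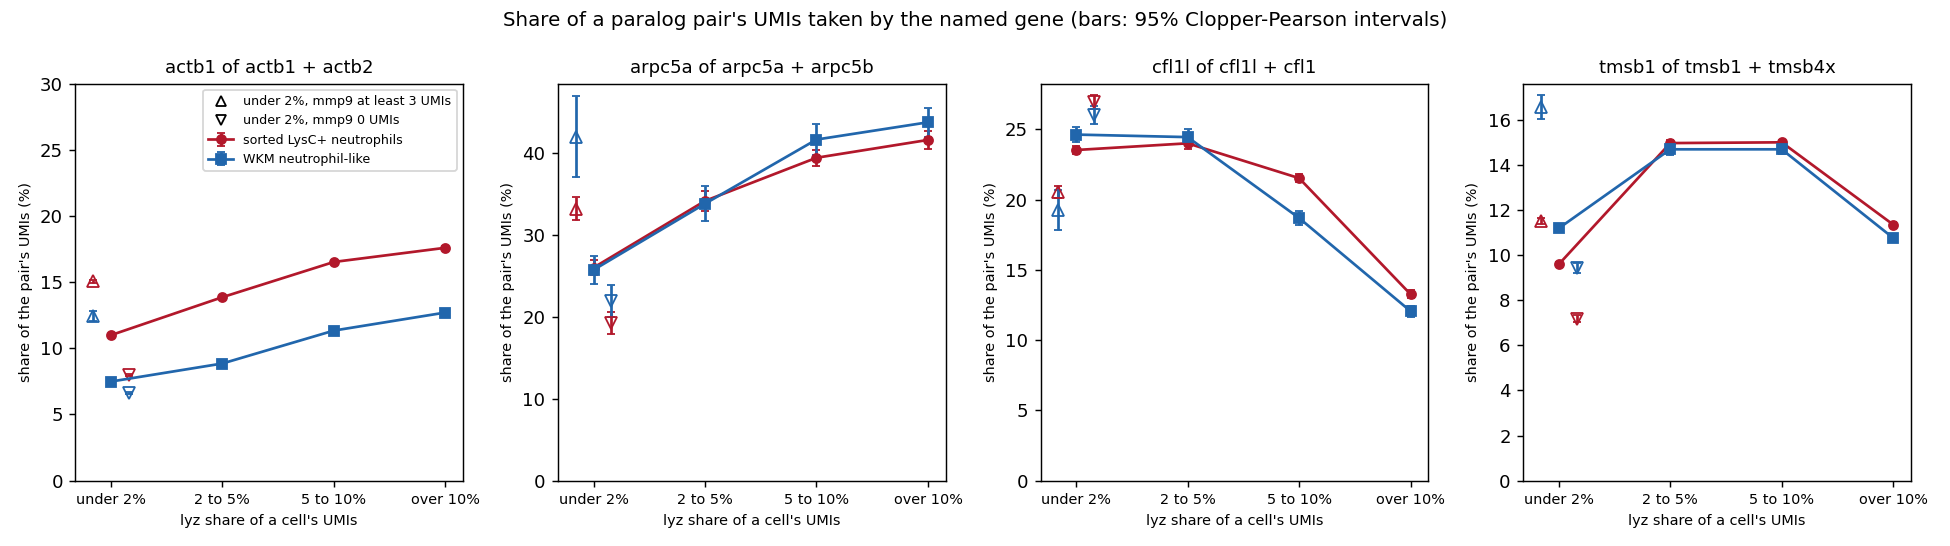
Share of each paralog pair's counts (percent) held by the named copy, by lyz share band, in sorted LysC+ neutrophils and in neutrophil-like cells of WKM, with triangles for cells under 2% lyz with at least 3 mmp9 UMIs or with 0. In sorted cells arpc5a holds 26.0% of its pair under 2% lyz and 41.6% over 10%, while cfl1l holds 23.5% and 13.3%.

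The second comparison set cells with at least 3 mmp9 UMIs against cells with none, mmp9 being the gelatinase that marks mature neutrophils in this reporter line. In sorted cells pooled over the lyz bands (3633 with at least 3 and 7774 with 0), 7 of 35 members were higher and none lower, where 12.17% of 8587 features were higher and 10.9% lower. The 7 were hck (log2 ratio 1.43, 1.33 to 1.52), lyn (1.34), tmsb1 (0.81), rhoab (0.79), lcp1 (0.69), msna (0.67) and myh9a (0.59), and the member median was 0.35, beside 0.04 over all features. Cells with mmp9 RNA lay mostly at low lyz shares, so this pooled contrast mixes mmp9 with the lyz band.

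Under 2% lyz alone, 2359 sorted cells had at least 3 mmp9 UMIs and 2728 had 0, and the set of members that differed changed. Of 34 members compared, 5 were higher (hck, lcp1, tmsb1, arpc5a and msna) and wasb was lower, where 9.71% of 5693 features were higher and 21.0% lower. The all-feature median was -0.15 there and the member median 0.07. Relative to that median 10 members were higher and 1 lower, where 13.8% of features were higher and 14.3% lower. The sides also differed otherwise, with a median of 2225 UMIs in cells with at least 3 mmp9 UMIs and 1539 in cells with 0, and with 9 heat shock genes summing to 3211 and 372 CPM. Their part in the member levels was not tested. The restrictions given below show only how the values changed with the cells kept.

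hck had 210 CPM in sorted cells under 2% lyz with at least 3 mmp9 UMIs and 56.2 CPM in those with 0, a log2 ratio of 1.90 (1.71 to 2.11) that was the largest of the 34. All sorted cells over 10% lyz had 55.6 CPM of hck. lcp1 had 1527 CPM in cells with at least 3 mmp9 UMIs and 671 CPM in cells with 0 (1.19, 1.13 to 1.25). tmsb1 had 4696 CPM in cells with at least 3 mmp9 UMIs and 2146 CPM in cells with 0 (1.13, 1.096 to 1.16). A kinase, a bundling protein and a monomer-binding thymosin thus led the members that were higher. arpc5a had 273 CPM in cells with at least 3 mmp9 UMIs and 141 CPM in cells with 0 (0.96, 0.82 to 1.09), while arpc5b had a log2 ratio of -0.11. msna had 1200 and 721 CPM in cells with at least 3 and with 0 (0.74, 0.67 to 0.80). wasb was the single member lower, with 746 CPM in cells with at least 3 mmp9 UMIs and 1292 CPM in cells with 0 (-0.79, -0.85 to -0.73). In the pooled contrast wasb had hardly differed, at a log2 ratio of -0.08. The actins again parted, with actb1 at 9296 CPM and actb2 at 52448 CPM in cells with at least 3 mmp9 UMIs, against 6404 CPM and 73782 CPM in cells with 0. Their log2 ratios of 0.54 and -0.49 each stayed inside 1.5-fold. actb1 therefore gave 15.1% of the pair in cells with at least 3 mmp9 UMIs and 7.99% in cells with 0.

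Of the members called in the pooled contrast, myh9a had a log2 ratio of -0.07 within the band under 2%, lyn 0.45 and rhoab 0.44, none past 1.5-fold. Per cell rather than in CPM, 17 of the 34 members were higher in cells with at least 3 mmp9 UMIs and none was lower, where 30.5% of features were higher and 5.46% lower on that scale. A cell needs depth to reach 3 mmp9 UMIs, and the per-cell scale follows depth. The median log2 ratio of all features was 0.34 on it. hck had 0.486 UMIs per cell, against 0.0920 in cells with 0. actb2 had 121 UMIs per cell on both sides. The ratio of hck was smaller in the other bands, with log2 ratios of 1.01 at 2 to 5%, 0.59 at 5 to 10% and 0.62 over 10% lyz, the last from only 49 cells with at least 3 mmp9 UMIs. At 2 to 5% lyz, 3 members were higher (hck, tmsb1 and lyn) and none lower, beside 6.34% and 9.41% of features. At 5 to 10%, lyn and hck were higher and wdr1 lower, beside 4.55% and 3.72% of features, and relative to the all-feature median only wdr1 was called (3.37% higher and 5.01% lower among features).

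Restrictions chosen after these values were seen changed the count of members but no sign among the genes named next. Among cells under 2% lyz without a heat shock UMI (667 with at least 3 mmp9 UMIs and 2178 with 0), hck (log2 ratio 1.08), lcp1 (0.72) and tmsb1 (0.69) were the 3 of 32 members that were higher and none was lower, where 4.29% of features were higher and 4.53% lower. There arpc5a (0.43) and msna (0.46) were not called, and wasb stood at -0.23. Among cells of 1500 to 3000 UMIs (1742 with at least 3 and 1457 with 0), 7 of 33 members were higher and wasb was lower, where 11.85% of features were higher and 19.98% lower. In those cells hck stood at 2.18, lcp1 at 1.26, tmsb1 at 1.13 and wasb at -0.90.

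**Figure D4:**
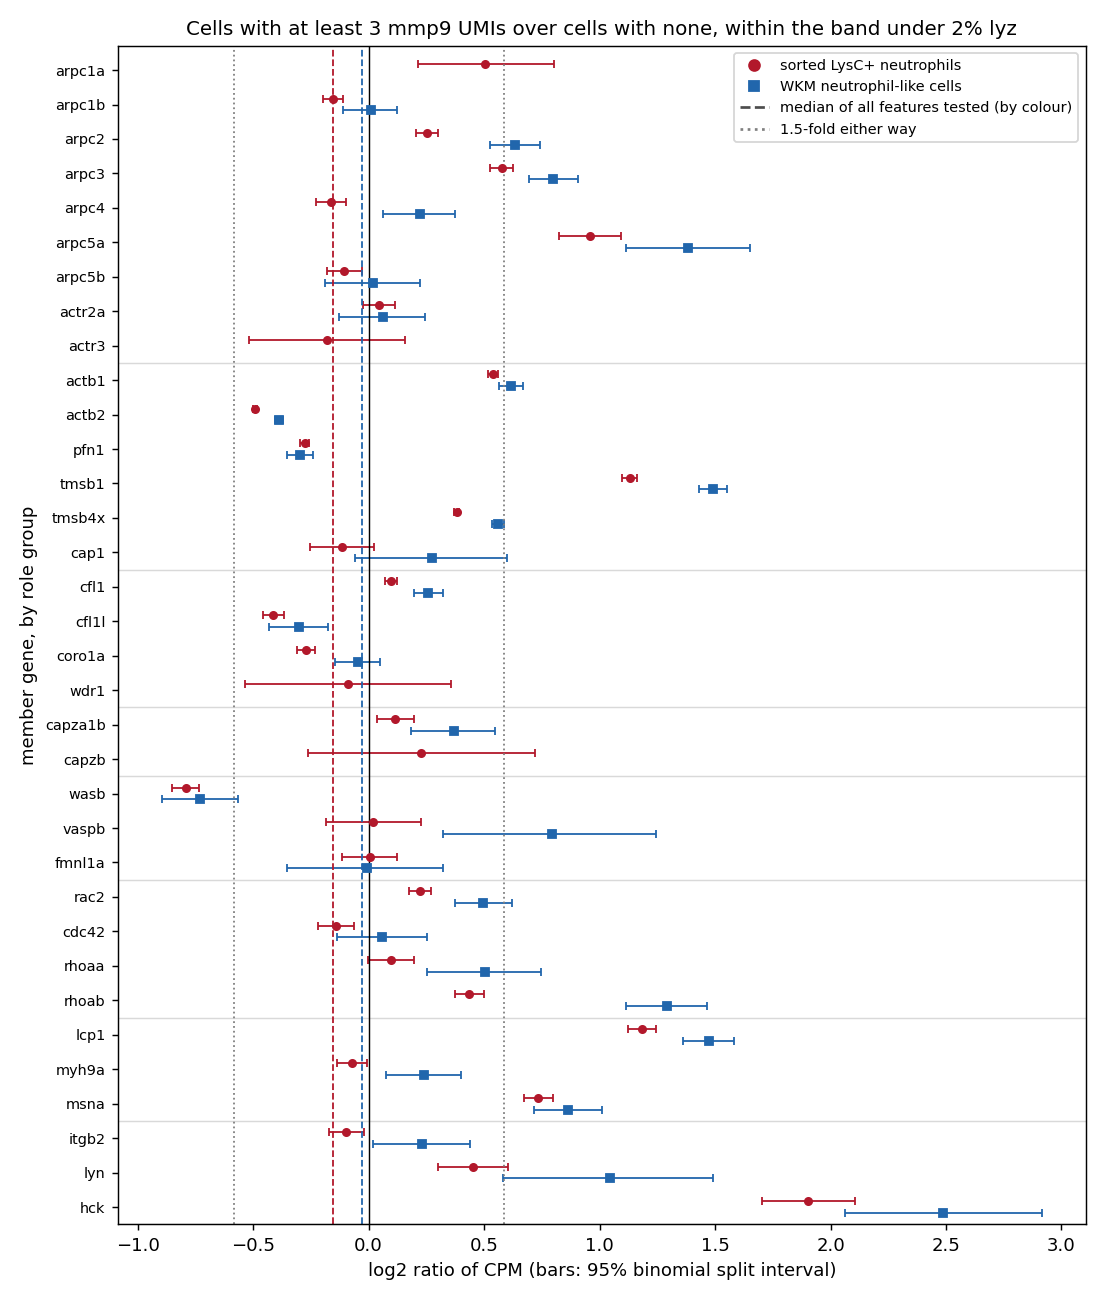
Log2 ratio of CPM, at least 3 mmp9 UMIs over 0, for each member with its 95% counting interval, in cells under 2% lyz of the sorted library and in neutrophil-like cells of WKM. Dashed lines mark the all-feature medians (-0.15 and -0.03) and dotted lines 1.5-fold; hck lies farthest right and wasb farthest left in both.

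Few neutrophil-like cells of WKM had mmp9 RNA, and most of those lay under 2% lyz, where 182 had at least 3 mmp9 UMIs and 1487 had 0. Their median depth was 2409 and 1655 UMIs. The heat shock genes stood at 86.9 and 84.6 CPM, without the gap seen in sorted cells, but other signs differed. Immediate early genes summed to 2498 and 1607 CPM, the median mitochondrial share was 2.11% and 1.80%, and globins took 4.25% and 7.15% of UMIs. The part of these differences in the member levels was not tested. Of 30 members compared, 11 were higher (hck, tmsb1, lcp1, arpc5a, rhoab, lyn, msna, arpc3, vaspb, arpc2 and actb1) and wasb was lower, where 15.4% of 2907 features were higher and 19.4% lower. The member median was 0.32, beside -0.03 over all features. hck had 191 CPM in cells with at least 3 mmp9 UMIs and 33.98 CPM in those with 0, a log2 ratio of 2.49 (2.06 to 2.91). All neutrophil-like cells over 10% lyz had 36.7 CPM of hck. lcp1 had 2068 CPM in cells with at least 3 mmp9 UMIs and 745 CPM in cells with 0 (1.47, 1.36 to 1.58). The thymosin gene tmsb1 had 6703 CPM in cells with at least 3 and 2384 CPM in cells with 0 (1.49, 1.43 to 1.55). The 5 members called higher in sorted cells of this band were among these 11. How often features in general were called higher in both libraries was not counted. arpc5a stood at 350 CPM in cells with at least 3 mmp9 UMIs and 134 CPM in cells with 0, and its share of the pair was 42.0% and 21.9%. wasb had 712 CPM in cells with at least 3 mmp9 UMIs and 1179 CPM in cells with 0 (-0.73, -0.89 to -0.57). rhoab and lyn, at log2 ratios of 1.29 and 1.05, passed the fold in WKM but not in the same sorted band. In the other bands of WKM only 49, 17 and 3 cells had at least 3 mmp9 UMIs. At 2 to 5% lyz, 6 of 30 members were higher (hck, lcp1, tmsb1, rhoab, arpc5a and arpc3) and wasb was lower, beside 14.3% and 21.1% of features. At 5 to 10%, 10 of 31 were higher and none lower (18.6% and 21.2% of features), led by tmsb1 at 1.15. Over 10%, 8 of 32 were higher and 4 lower (34.9% and 26.7% of features), from 3 cells on the mmp9 side. hck stood at 1.56, 1.03 and 1.73 in these bands, from 24, 9 and 4 counts, and the intervals of the last 2 reached below 0. Pooled over the bands, 15 of 34 members were higher among neutrophil-like cells and none lower (19.6% and 16.7% of features), and 19 were higher and none lower when cells in no gate were included (21.9% and 21.6%).

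The third comparison set the neutrophil-like cells of WKM (5073 of 8166 cells, 62.1%) against 5 other classes gated by their own markers. These were 571 monocyte/macrophage-like, 80 T/NK-like, 115 B cell-like, 314 HSPC-like (hematopoietic stem and progenitor) and 971 erythroid-like cells, while 18 thrombocyte-like cells were too few. The members took 10.6% of UMIs in neutrophil-like cells, 6.19% in monocyte/macrophage-like, 7.06% in T/NK-like, 3.82% in B cell-like, 1.46% in HSPC-like and 0.643% in erythroid-like cells. In UMIs per cell the monocyte/macrophage-like cells led, with 640 member UMIs, against 387 in neutrophil-like cells, at median depths of 9814 and 2603 UMIs. By CPM, 26 of 37 members were highest in neutrophil-like cells, 16 of them with an interval clear of the next class, where 17.8% and 7.04% of 8464 features were. In erythroid-like cells, 29 members were lowest, as were 48.3% of features, in a class whose globins took 52.9% of the UMIs.

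**Figure D5:**
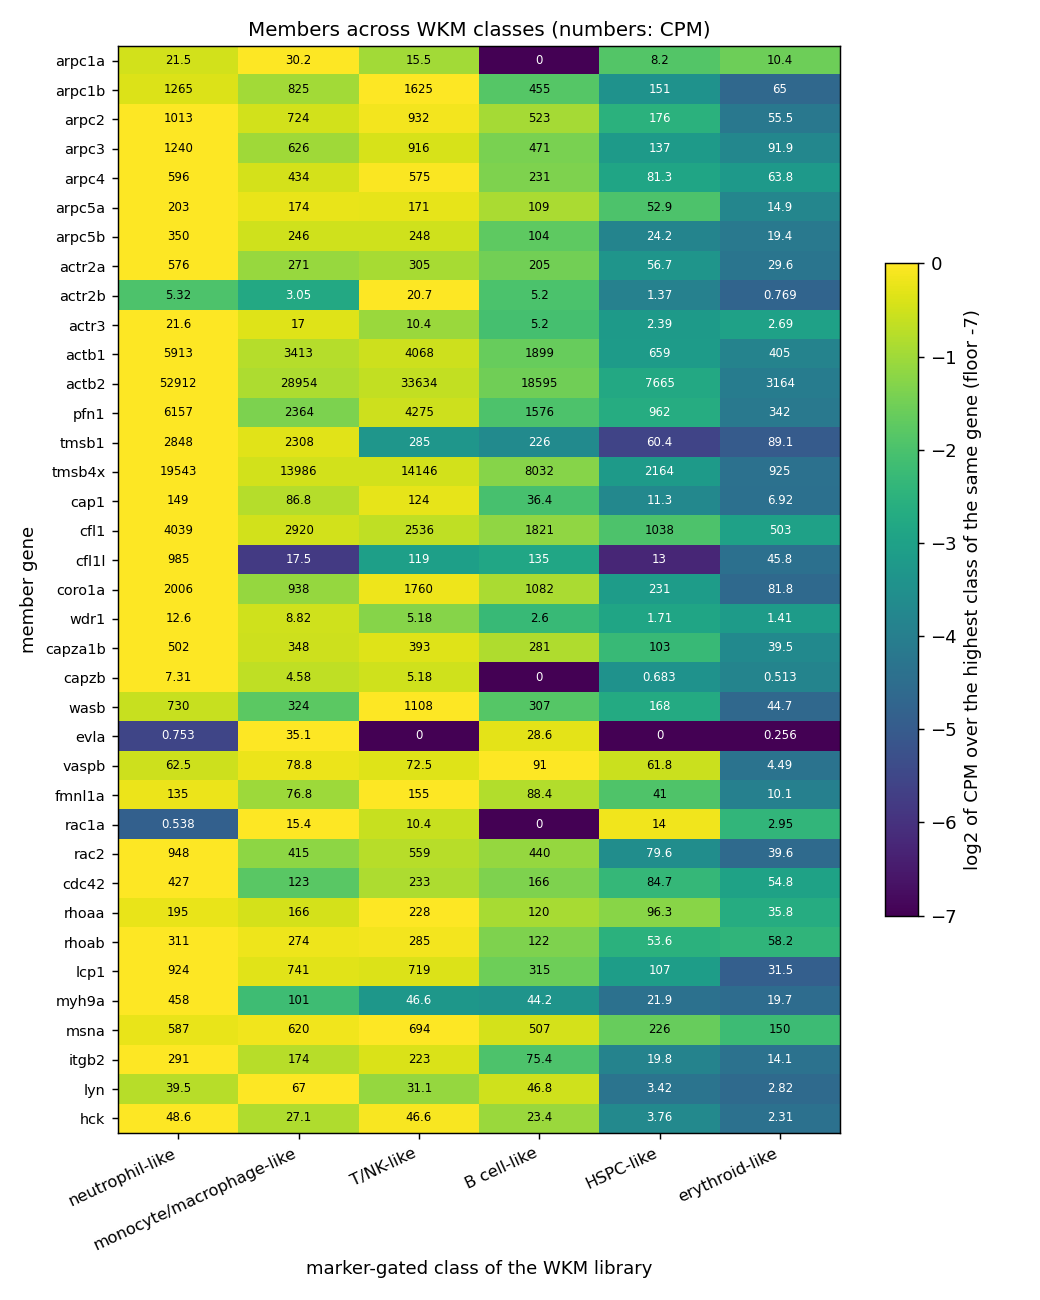
CPM of each member (numbers in the cells, color on a log scale) in the gated classes of WKM, members in rows by role. cfl1l, myh9a and tmsb1 separate neutrophil-like cells from lymphoid and progenitor classes, and evla and rac1a are near 0 in neutrophil-like cells.

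Against HSPC-like cells, 34 of 35 members were higher in neutrophil-like cells and none lower (40.9% and 23.2% of features, or 33.7% and 31.3% relative to their median, which left the members' count as it was), with a member median log2 ratio of 3.06, beside 0.29. vaspb was the exception, with 62.5 CPM in neutrophil-like cells and 61.8 CPM in HSPC-like cells. Against B cell-like cells, 31 of 35 were higher and none lower (32.4% and 29.7% of features). That count includes arpc1a and capzb, which had 0 counts in B cell-like cells. There 3 counts would be 7.80 CPM, which for capzb is no lower than its 7.31 CPM in neutrophil-like cells. Against erythroid-like cells all 35 were higher, where 63.9% of features were higher and 10.5% lower. Relative to the all-feature median of 0.998, 34 were (35.4% and 30.6% of features), as with globins and lyz left out of the totals. Against T/NK-like cells, 10 of 35 were higher and 2 lower (34.1% and 25.5% of features), and with only 80 T/NK-like cells the intervals were wide. wasb was lower in neutrophil-like cells, at 730 CPM, against 1108 CPM in T/NK-like cells (-0.60, -0.80 to -0.40). arpc1b had 1265 CPM in neutrophil-like cells and 1625 CPM in T/NK-like cells, with intervals that did not overlap but inside 1.5-fold. actr2b was the other member called lower, from few counts.

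Monocyte/macrophage-like cells are the other professional crawlers of the marrow, and the members divided most clearly there. Of 37 members, 18 were higher in neutrophil-like cells and 3 lower, where 23.1% of 7670 features were higher and 27.4% lower, and the member median was 0.53, beside -0.06. cfl1l had 985 CPM in neutrophil-like cells and 17.5 CPM in monocyte/macrophage-like cells, a log2 ratio of 5.82 (5.54 to 6.11), while its partner cfl1 had 4039 and 2920 CPM. It made up 19.6% of the cofilin pair in neutrophil-like cells, 0.59% in monocyte/macrophage-like, 4.48% in T/NK-like, 6.91% in B cell-like and 1.23% in HSPC-like cells. With cells thinned to 1000 UMIs and shallower cells left out, 64.1% of neutrophil-like and 1.93% of monocyte/macrophage-like cells had a cfl1l UMI (84.3% and 6.48% unthinned), and 6.08% of erythroid-like cells did (12.7% unthinned, median depth 6983 UMIs), a class in which free RNA can give such a share. No other member had so large a ratio over monocyte/macrophage-like cells. myh9a had 458 CPM in neutrophil-like cells and 101 CPM in monocyte/macrophage-like cells (2.18, 2.06 to 2.30), and it did not pass 46.6 CPM in any lymphoid class. cdc42 had 427 and 123 CPM (1.80), pfn1 6157 and 2364 CPM (1.38), rac2 948 and 415 CPM (1.19), and wasb 730 and 324 CPM (1.17) in neutrophil-like and in monocyte/macrophage-like cells. tmsb1 was shared by both myeloid classes, at 2848 CPM in neutrophil-like and 2308 CPM in monocyte/macrophage-like cells, and stood at 285 CPM or less in the lymphoid, progenitor and erythroid classes.

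The 3 members lower in neutrophil-like than in monocyte/macrophage-like cells were evla, rac1a and lyn. evla had 0.753 CPM in neutrophil-like cells and 35.1 CPM in monocyte/macrophage-like cells (-5.54, -6.44 to -4.76), and 28.6 CPM in B cell-like cells. rac1a had 0.538 CPM in neutrophil-like cells and 15.4 CPM in monocyte/macrophage-like cells (-4.84, -5.95 to -3.90), and 14.0 CPM in HSPC-like cells. Of the counts of rac1a and rac2 in neutrophil-like cells, rac1a gave 0.057%, against 3.58% in monocyte/macrophage-like and 14.96% in HSPC-like cells. lyn had 39.5 CPM in neutrophil-like cells and 67.0 CPM in monocyte/macrophage-like cells (-0.76, -0.94 to -0.58), but neutrophil-like cells under 2% lyz reached 65.2 CPM. hck, the other Src family kinase, was higher in neutrophil-like cells, at 48.6 CPM, against 27.1 CPM (0.84, 0.60 to 1.09). msna and vaspb differed by less than 1.5-fold between these classes, with 587 and 62.5 CPM in neutrophil-like cells and 620 and 78.8 CPM in monocyte/macrophage-like cells.

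Other genes of the pathway were taken from 5 lists of 176 symbols that do not overlap the members, of which 156 were in the table. In sorted cells, 64 of 90 that could be compared were higher under 2% lyz than over 10% and 5 were lower, beside the background shares given above, with a median log2 ratio of 0.93. Genes of the WAVE complex, WASP and formins were higher in 11 of 12 cases and integrins and their kinases in 13 of 14, none of them lower in any case. GTPases and their regulators were higher in 19 of 26, also with none lower. Monomer, severing and capping genes were higher in 11 of 16 and lower in 2. Crosslinkers, motors and membrane linkers were higher in 10 of 22 and lower in 3. The largest ratios were those of marcksl1b, a MARCKS-like membrane and actin binding protein (36.3 CPM under 2% lyz and 2.89 CPM over 10%, log2 ratio 3.65), myo9b, an unconventional myosin (29.3 and 4.11 CPM, 2.83), and ssh2a, a slingshot phosphatase that activates cofilin (99.1 and 18.0 CPM, 2.46). The smallest were those of lsp1a, a leukocyte actin-binding protein (0.483 CPM under 2% lyz and 7.76 CPM over 10%, -4.01), tpm4a, a tropomyosin (28.5 and 154 CPM, -2.44), and gmfb, which debranches Arp2/3 networks (8.70 and 29.8 CPM, -1.77). In neutrophil-like cells of WKM, 47 of 77 were higher and 3 lower, beside 40.8% and 10.1% of all features. Again tpm4a (-1.94) and gmfb (-1.12) were among the lower. By mmp9 within the sorted band under 2%, 10 of 78 were higher and 12 lower, beside 9.71% and 21% of all features. Of the 12 genes of the WAVE complex, WASP and formins compared there, none was higher and 4 were lower. The upward ratios were led by marcksl1b (2.43), the filamin gene flna (1.80) and enah of the Ena/VASP family (1.78), and the downward by tpm4a (-1.38). Over monocyte/macrophage-like cells, 44 of 86 were higher in neutrophil-like cells and 9 lower, beside 23.1% and 27.4% of all features. There the largest ratio was that of scinlb, a scinderin-like severing protein (578 CPM in neutrophil-like and 55.8 CPM in monocyte/macrophage-like cells, 3.37), and the smallest that of marcksl1b (5.38 and 137 CPM, -4.67).

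Within a lyz band the libraries were close for most members. Sorted cells were higher than neutrophil-like WKM cells for 5, 2, 4 and 3 members in the bands of rising lyz share, where 19.7%, 14.4%, 14.3% and 12.17% of features were higher, and no member was lower (4.68%, 2.19%, 1.60% and 1.15% of features). Relative to all-feature medians between 0.18 and 0.20, 4, 2, 2 and 1 members were higher and none lower, where 11.84%, 8.02%, 7.23% and 6.23% of features were higher and 9.45%, 5.05%, 4.15% and 2.76% lower. rhoab was higher in sorted cells in all 4 bands, with log2 ratios of 1.07, 0.83, 0.69 and 0.59. hck was too, with 1.11, 1.01, 0.80 and 0.60. lyn was higher in sorted cells only under 2% lyz (1.22), with 0.30 to 0.37 in the other bands. arpc1a passed the fold in 3 of the 4 bands and capzb in 2. actb1 was at 0.30 to 0.47 and actb2 at -0.26 to -0.14, so the sorted cells held a larger part of their beta actin as actb1. The sides also differ in heat shock genes, at 1734 CPM in sorted cells under 2% lyz and 84.4 CPM in WKM neutrophil-like cells of that band. They differ in mmp9 too, at 1625 CPM in sorted and 333 CPM in WKM cells of that band. With at least 3 mmp9 UMIs there, hck had 0.486 UMIs per sorted cell and 0.495 per WKM cell. With 0 mmp9 UMIs it had 0.0920 and 0.0673. Ratios of the members between libraries at matched mmp9 were not computed. The sort, the library and the gate cannot be told apart here.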

How the data were processed

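Kidney marrow cells of pooled zebrafish were profiled in 2 droplet libraries with 3' chemistry. The authors deposited a matrix of UMI counts, not normalized, for genes by cell barcodes. Per the submitters' processing notes the authors used Cell Ranger 3.1.0 with GRCz11, and the paper's methods add the reporter sequences to that reference. Their later sample demultiplexing and normalization were not repeated. Cells with at least 500 features and under 10% mitochondrial UMIs were kept, and Scrublet (scanpy 1.11.5, expected doublet rate 10%) marked 1949 sorted and 147 WKM cells as doublets, which were removed. Counts were summed over the cells of a band or class, and 95% intervals are exact Poisson (CPM), exact binomial split (ratios) or Clopper-Pearson (shares), computed with scipy 1.17.1. Class gates needed at least 2 UMIs over at least 2 markers, under 1% lyz (at least 0.2% for neutrophil-like cells) and, for erythroid-like cells, 10% globin UMIs. The gate rules and the restriction of WKM bands to neutrophil-like cells were set after seeing the data. Calculations were tested on simulated data. All members are accounted for, and those described across all bands are the most counted and those with the largest and smallest sorted band ratio of each role group, plus paralog pairs. Of other genes the 3 largest and 3 smallest ratios are the rule, and some of these are left out for brevity outside the sorted band contrast. Members and lists were chosen with earlier results of these data known.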

Additional observations from a re-analysis of the deposited data

How the results depend on the processing

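Both libraries come from the same fish, but no analysis paired by fish was made, because cells were not assigned to fish here. Each condition is therefore 1 library. In the sorted bands, the 22 members higher under 2% lyz became 14 with lyz left out of the totals, 7 after centring on the all-feature median, 7 at a 2-fold limit, 14 with 2 to 5% lyz in place of under 2%, and 0 by mean UMIs per cell. In WKM with cells of no gate, the 3 higher became 1 without lyz in the totals, after centring, with at least 800 features, at 2-fold or with equal slices of cells in place of bands, 10 by the mean of per-cell CPM, 7 with 2 to 5% lyz, 9 without cycling cells, 16 in neutrophil-like cells only and 0 by UMIs per cell. By mmp9, the 7 members higher in sorted cells became 2 at 2-fold, 3 with thinned cells, 4 with at least 1 mmp9 UMI, 3 under 2% lyz without a heat shock UMI and 2 by UMIs per cell. The 19 in WKM became 6 at 2-fold, 11 in neutrophil-like cells under 2% and 9 by UMIs per cell. The 18 over monocyte/macrophage-like cells became 8 at 2-fold, and the 10 over T/NK-like cells became 17 by per-cell CPM and 5 at 2-fold. The mmp9 ratio of myh9a in sorted cells (0.59) turned to -0.073 under 2% lyz and to -0.065 there in cells of 1500 to 3000 UMIs. The other 78 counts were within 1.5 times their main value. Of all features in the sorted bands, 44.4% were higher in the main setting, 25.9% after centring and 2.94% by UMIs per cell. Where no share of all features is given for a setting, a count does not show whether members moved more than features in general. Of 840 values of single members in the sorted library, 426 moved by more than the half-width of their counting interval and 412 did not. The other 2, those of myh9a, changed sign from a main ratio of at least 1.5-fold. Sign changes of smaller main ratios are among the 426 and the 412. By mmp9 in sorted cells, 32 of 35 members had a log2 ratio above 0 when pooled, and 20 of 34 did under 2% lyz. Settings by UMIs per cell, in neutrophil-like cells only, without a heat shock UMI and of fixed depth were chosen after seeing the data. The cause of these shifts was not tested, except that fewer genes can pass a 2-fold limit. With 1 library per condition, sort and library preparation cannot be told apart in the comparison of sorted with WKM cells, the spread between the fish was not measured for any comparison, and members with few counts (evla, rac1a, actr2b, capzb, wdr1) are limited by depth.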
